A study of Mus musculus with 12 samples.

Results

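The chemokine system of a mouse fibroblast line was followed through hypoxia, in cells with and without N-VEGF. Its members were the protein-coding genes whose names carry a chemokine or chemokine receptor symbol with a number (Ccl, Cxcl, Cx3cl, Xcl, Ccr, Cxcr, Cx3cr, Xcr and Ackr). These were 59 of the 54446 genes in the count table, of which 21969 are protein-coding. 1 further gene with such a name, Cxcl11, is annotated as a pseudogene and was left out. RNA was sequenced from NIH3T3 cells, a line of mouse embryonic fibroblasts (wild type, WT), and from ΔN-VEGF cells derived from them. N-VEGF is the N-terminal part that is cleaved from a long form of VEGF-A, and in ΔN-VEGF cells Cas9 and donor cassettes had replaced its coding sequence, after which VCre recombinase removed the cassettes. The downstream start of VEGF itself was kept. The work describes isolated clones, and the labels do not say which clone was sequenced, so any difference between the lines cannot be told apart from a difference of that clone. Both lines spent 16 h either in normoxia or in hypoxia (oxygen below 0.2%), and each of the 4 groups had 3 samples. The labels number the samples of a group without saying whether they were separate cultures, so the p-values measure only the spread between these samples.

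Chemokines are small secreted proteins that direct the migration of leukocytes and other cells along gradients. They are classed by the spacing of their first cysteines (CC, CXC, CX3C and C) and act through receptors coupled to G proteins, whereas the atypical receptors bind and remove ligands without that coupling. Fibroblasts are a known source of monocyte attractants such as Ccl2 and Ccl7 and of neutrophil attractants such as Cxcl1 and Cxcl5, while most chemokine receptors are known from leukocytes. Many inflammatory chemokine genes are classic targets of NF-κB, Cxcl10 is also a classic target of interferon signalling, and hypoxia acts on many genes through HIF, which binds a short core sequence.

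The bases upstream of 4 members are shown as examples of different patterns: Ccl8 and Cxcl10 differed between the lines in hypoxia in opposite directions, Ccl9 had lower levels in every ΔN-VEGF sample than in WT of the same condition, and Ackr3 was the most abundant receptor. The sequences are the 250 bases before the RefSeq transcript start in build GRCm38.p6, written 5′ to 3′ on the strand of the gene. They lie at chr11:82114935-82115184 on the plus strand (Ccl8), chr11:83578637-83578886 on the minus strand (Ccl9), chr5:92348890-92349139 on the minus strand (Cxcl10) and chr1:90203730-90203979 on the plus strand (Ackr3). Capitals mark letters that match GGNNNTTCC or GGNNNTCCC (NF-κB type), TTTCNNTTT (interferon-response type), or ACGTG or GCGTG (hypoxia-response core), searched on both strands.
Ccl8: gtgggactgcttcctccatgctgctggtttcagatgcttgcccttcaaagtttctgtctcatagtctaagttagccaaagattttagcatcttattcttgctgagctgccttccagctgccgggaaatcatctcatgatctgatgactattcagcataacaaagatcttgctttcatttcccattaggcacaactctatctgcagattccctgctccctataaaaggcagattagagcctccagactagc
Ccl9: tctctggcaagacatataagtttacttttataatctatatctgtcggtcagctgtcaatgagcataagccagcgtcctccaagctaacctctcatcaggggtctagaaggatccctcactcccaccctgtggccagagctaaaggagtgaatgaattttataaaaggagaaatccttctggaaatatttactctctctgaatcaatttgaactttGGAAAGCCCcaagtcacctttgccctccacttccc
Cxcl10: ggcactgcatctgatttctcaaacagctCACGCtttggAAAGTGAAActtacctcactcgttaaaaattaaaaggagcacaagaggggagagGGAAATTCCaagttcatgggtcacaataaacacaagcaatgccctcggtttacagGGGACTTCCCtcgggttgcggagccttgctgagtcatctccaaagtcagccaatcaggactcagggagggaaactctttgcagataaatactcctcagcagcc
Ackr3: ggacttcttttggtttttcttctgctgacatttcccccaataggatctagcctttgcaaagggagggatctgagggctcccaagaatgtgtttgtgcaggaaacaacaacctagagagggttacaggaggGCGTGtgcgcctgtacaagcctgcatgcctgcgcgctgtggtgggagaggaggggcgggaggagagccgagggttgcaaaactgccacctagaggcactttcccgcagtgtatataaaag
In Cxcl10, GGNNNTTCC matched 158 and 103 bases before the start, and the match at 103 overlapped letters of GGNNNTCCC. The interferon-response letters matched 212 bases before its start and GCGTG on the opposite strand 222 bases before. Ccl9 had 1 match, to GGNNNTTCC on the opposite strand at 35 bases before the start, Ackr3 had GCGTG at 120 bases before, and none of the 5 sets of letters occurred in the Ccl8 stretch. In the whole window from 250 bases before to 50 bases after the start, GGNNNTTCC occurred in 18.5% of 32851 windows of all genes and in 5 of the 15 windows of members tested. The shares for all windows were 18.6% for GGNNNTCCC, 10.6% for TTTCNNTTT, 19.6% for ACGTG and 32.4% for GCGTG, and 4, 2, 1 and 6 of the 15 members' windows held them. 45 of the 59 members, and 12 of the 20 tested, had a window in the table.

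Each sample held 30519052 to 43056690 counts on genes. Expression levels are given as CPM (counts divided by the TMM-scaled library total, per 1000000 counts), and a change was called at an adjusted p below 0.05 in edgeR's quasi-likelihood test together with a fold change of at least 2. The second normoxia sample of each line stood apart. In WT, its log2 CPM correlated with those of samples 1 and 3 at 0.956 and 0.957, whereas samples 1 and 3 correlated at 0.996. In ΔN-VEGF cells the values were 0.986 for both pairs with sample 2 and 0.996 for samples 1 and 3. The second WT normoxia sample correlated with ΔN-VEGF normoxia samples 1, 2 and 3 at 0.9755, 0.9841 and 0.9754. It was thus closer to each sample of the other line than to its own replicates. The reason was not tested, and the sample was kept in the WT normoxia means and the main fit. All 9 fibroblast markers were expressed, and their summed level was 17000 to 24150 CPM in WT normoxia, 27040 to 29270 in WT hypoxia, 20360 to 21530 in ΔN-VEGF normoxia and 40770 to 42860 in ΔN-VEGF hypoxia. Single markers moved both ways: WT hypoxia raised Vim (log2 1.20, adjusted p 0.00038) and lowered Dcn (-2.80, 0.0011), Pdgfra (-2.32, 0.0036) and Pdgfrb (-1.94, 0.00019), and ΔN-VEGF hypoxia raised Vim (1.53, 4.1e-05) and Col1a1 (1.58, 0.0013) and lowered Pdgfrb (-1.44, 0.00075) and Thy1 (-1.15, 0.0087). In hypoxia Dcn (3.38, 0.0015) and Col1a1 (1.58, 0.0053) were higher in ΔN-VEGF than in WT cells. Of 14 leukocyte markers, 7 to 10 had at most 3 counts in every sample of a group. Tyrobp was at 0 in all 12 samples, and Ptprc and Cd3e were at or near 0. The summed leukocyte level was 6.88 to 13.8 CPM in WT normoxia, 36.5 to 37.1 in WT hypoxia, 7.62 to 10.5 in ΔN-VEGF normoxia and 55.6 to 59.9 in ΔN-VEGF hypoxia. Csf1r accounted for this shift: the other 13 markers summed to 4.05 to 8.21 CPM in all 4 groups. The 6 endothelial markers, 2 of which had at most 3 counts in each group, summed to 3.37 to 5.27 CPM in WT normoxia, 7.72 to 9.93 in WT hypoxia, 2.69 to 4.50 in ΔN-VEGF normoxia and 20.7 to 25.7 in ΔN-VEGF hypoxia. Kdr and Emcn were at 0 in all but 1 sample, where each had 1 count, and Cdh5 rose in both lines (log2 1.47, adjusted p 0.021, and 3.26, 0.00012) and was higher in ΔN-VEGF than in WT hypoxia (1.88, 0.011). Tie1 was lower in that comparison (-1.70, 0.0057), and Pecam1 rose in ΔN-VEGF hypoxia (1.17, 0.0068). The 6 epithelial markers summed to 3.55 to 3.90, 8.72 to 10.4, 2.27 to 2.79 and 3.00 to 3.35 CPM in the same order of groups, with Epcam at 0 in all 12 samples and Krt14 higher in WT hypoxia than in WT normoxia (2.14, 5.3e-05). Krt14 (-1.68, 0.0011) and Krt8 (adjusted p 0.018) were lower in ΔN-VEGF than in WT hypoxia, and Krt8 fell in ΔN-VEGF hypoxia (adjusted p 0.026). The part of these marker shifts in the chemokine results was not tested. In bulk RNA, fewer cells expressing a gene and less RNA per cell cannot be told apart.

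Of the 59 members, 20 passed the filter on low counts and were tested, 12 had a few counts, and 27 had at most 3 counts in every sample. The members with at most 3 counts were Ackr1, Ccl1, Ccl3, Ccl6, Ccl12, Ccl19, Ccl20, Ccl21a, Ccl21b, Ccl22, Ccl24, Ccl26, Ccl27b, Ccr1, Ccr2, Ccr3, Ccr6, Ccr8, Cxcl2, Cxcl3, Cxcl9, Cxcl13, Cxcl14, Cxcl15, Cxcr3, Cxcr4 and Xcl1. The tested members were 15 ligands, 4 signalling receptors and 1 atypical receptor. Compared per kilobase of exon (RPKM), Ccl2 had the highest mean level in WT normoxia at 38.3, followed by Ackr3 at 20.2 and Ccl7 at 19.6, with Ccl8 at 3.21 and Cxcl5 at 3.11. In WT hypoxia Ackr3 led at 58.5 RPKM and Ccl2 stood at 3.56. In ΔN-VEGF hypoxia the order was Ackr3 at 69.9 RPKM, Ccl8 at 47.9, Ccr7 at 24.3 and Cxcl5 at 8.28.

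In WT cells hypoxia changed 10 of the 20 tested members, of which 3 were higher and 7 lower. The same rule called 15.7% of all 14724 genes tested, 9.17% higher and 6.53% lower. The members' median log2 fold change was -0.58, against -0.07 for all genes. In ΔN-VEGF cells hypoxia changed 14 of the 20 members, 6 higher and 8 lower, where 27.2% of all genes were called, 14.6% higher and 12.7% lower. Their median was 0.07, against -0.01 for all genes. Total counts in place of TMM scaling shifted the median of all genes in ΔN-VEGF hypoxia to -0.41 and in WT hypoxia to -0.30, and gave 4 higher and 9 lower members in ΔN-VEGF cells and again 3 and 7 in WT. The comparison of the lines in normoxia called 2 members, 1 higher and 1 lower, against 2.17% of all genes, 0.618% higher and 1.55% lower. In hypoxia the lines differed in 6 members, 4 higher and 2 lower in ΔN-VEGF cells, against 6.81% of all genes, 2.87% higher and 3.94% lower. The members' median was 0.54 there, and 0.03 in normoxia, against -0.01 and -0.025 for all genes. A difference between the 2 hypoxia responses (the interaction) was called for 2 members, 1 in each direction, against 1.56% of all genes, 0.89% positive and 0.672% negative. The comparisons share samples: each group enters 2 of the first 4, and the interaction uses all 12 samples.

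**Figure D1:**
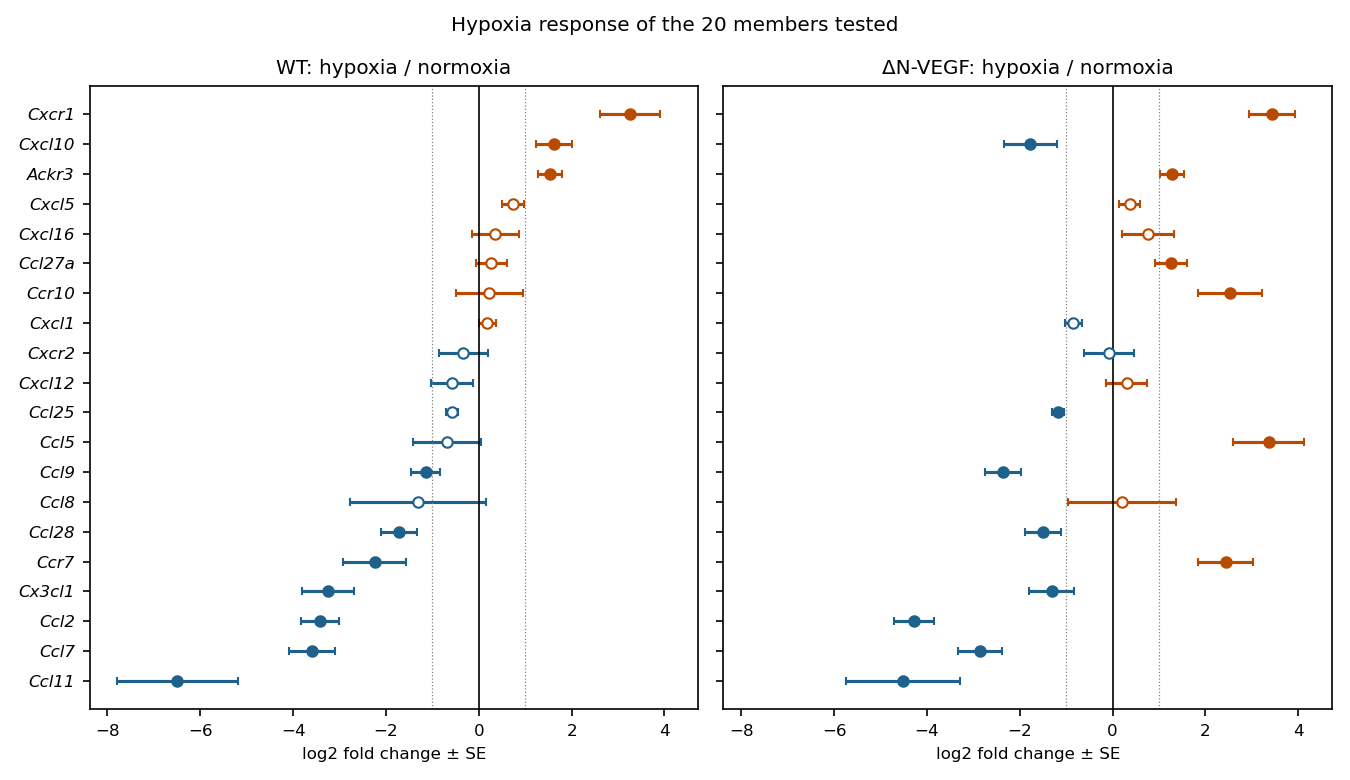
Log2 fold change of hypoxia against normoxia with its standard error for the 20 members tested, in WT cells (left) and ΔN-VEGF cells (right). Filled points passed the adjusted p and the fold change of 2 (dotted lines), orange is higher and blue lower in hypoxia; Ccl2, Ccl7 and Ccl11 lie far to the left in both panels, and Ccr7 and Cxcl10 lie on opposite sides of 0.

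Of the inflammatory CC ligands, the monocyte attractants Ccl2 and Ccl7 and the eosinophil attractant Ccl11 fell in hypoxia in both lines. Their genes are neighbours on chromosome 11, at 82035571 to 82037453, 82045712 to 82047525 and 82057823 to 82062955 (GRCm38, plus strand). Ccl2 stood at 37.4, 52.4 and 40.8 CPM in the 3 samples of WT normoxia and at 3.92, 3.63 and 4.61 CPM in WT hypoxia. In the ΔN-VEGF line it stood at 38.0, 113.9 and 36.4 CPM in normoxia and at 3.32, 3.44 and 2.91 CPM in hypoxia. No normoxia sample overlapped with a hypoxia sample, and only the second ΔN-VEGF normoxia sample was outside the range of 36.4 to 52.4 CPM. The log2 fold change of Ccl2 was -3.42 ± 0.41 (SE) in WT (adjusted p 7.8e-05) and -4.28 ± 0.43 in ΔN-VEGF cells (1.1e-05), and -3.53 in the latter without the second normoxia sample. The interaction for Ccl2 was -0.86 ± 0.54 (adjusted p 0.40).

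Ccl7 stood at 17.5, 10.5 and 19.1 CPM in WT normoxia and at 1.17, 1.44 and 1.30 in WT hypoxia. In ΔN-VEGF cells its levels were 10.1, 37.9 and 11.4 CPM in normoxia and 2.60, 3.19 and 2.36 CPM in hypoxia. It fell by 3.59 ± 0.50 on the log2 scale in WT (adjusted p 0.00023). In the ΔN-VEGF line Ccl7 fell by 2.87 ± 0.47 (0.00044), or by 1.99 without the second normoxia sample. Every hypoxic ΔN-VEGF sample was above every hypoxic WT sample, but the difference of the lines (1.06 ± 0.50, adjusted p 0.16) was not called. Without the second ΔN-VEGF normoxia sample the same difference had an adjusted p of 0.013, and the interaction was 1.60 (0.031).

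Ccl11 reached 2.56, 0.395 and 2.99 CPM in WT normoxia and 0.538, 2.16 and 0.392 CPM in ΔN-VEGF normoxia. In hypoxia it had 0, 2 and 0 counts in WT and 0, 1 and 3 counts in ΔN-VEGF cells, so it was nearly undetected there. From summed counts, the WT level was 109-fold lower in hypoxia (95% counting interval 30.0 to 908) and the ΔN-VEGF level 24.4-fold lower (9.30 to 90.8), which covers counting error only. The adjusted p was 0.0026 in WT and 0.0093 in ΔN-VEGF cells. The fitted log2 value moved from -6.49 to between -9.31 and -5.90 when WT hypoxia sample 2 or 3 was left out. In the ΔN-VEGF line it moved from -4.52 to -5.76 without hypoxia sample 3 and to -3.39 without normoxia sample 2.

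Ccl9, a CC ligand of mouse that attracts monocytes and dendritic cells, lies in the second cluster of chromosome 11 (83572919 to 83578636, minus strand). It stood at 3.72, 1.97 and 4.07 CPM in WT normoxia and at 1.40, 1.64 and 1.38 in WT hypoxia. The ΔN-VEGF samples had 1.25, 0.829 and 1.52 CPM in normoxia and 0.313, 0.225 and 0.153 CPM in hypoxia. Both lines thus had lower levels in hypoxia, and ΔN-VEGF cells were below WT in each condition with no overlap. The fall was 1.15 ± 0.31 in WT (log2, adjusted p 0.013) and 2.36 ± 0.39 in ΔN-VEGF cells (0.0004). The line difference was -1.44 ± 0.31 in normoxia (0.027) and -2.66 ± 0.38 in hypoxia (0.0012). The WT fall lost its call without WT hypoxia sample 1 (adjusted p 0.051) or 3 (0.053), and without WT normoxia sample 3 (log2 -0.95). The normoxia line difference kept its call only without WT normoxia sample 2, WT hypoxia sample 2 or ΔN-VEGF hypoxia sample 1 or 3, and otherwise gave -1.63 to -1.23 (0.051 to 0.11). It was not called in a fit to the 6 normoxia samples (adjusted p 0.33, or 0.14 with a block for the sample number). The line difference in hypoxia kept its call with any 1 sample left out.

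Ccl8 and Ccl5 separated the lines in hypoxia. Ccl8, which attracts monocytes and other leukocytes, lies downstream of Ccl2, Ccl7 and Ccl11 at 82115185 to 82116799. It had 0.689, 62.1 and 0.735 CPM in ΔN-VEGF normoxia (32, 2620 and 30 counts) and 22.9, 26.2 and 24.2 CPM in ΔN-VEGF hypoxia. The WT samples had 1.67, 1.37 and 1.89 CPM in normoxia and 0.753, 0.719 and 0.510 CPM in hypoxia. Hence 4 of the 12 samples had high Ccl8, namely the 3 of ΔN-VEGF hypoxia and the second of ΔN-VEGF normoxia. In hypoxia Ccl8 was higher in ΔN-VEGF than in WT cells by 5.21 ± 1.49 on the log2 scale (adjusted p 0.032). The hypoxia change in ΔN-VEGF cells was 0.21 ± 1.16 (0.89) with all samples and 5.09 (1.7e-07) without the second normoxia sample. In WT the groups did not overlap, with a log2 change of -1.32 ± 1.47 (0.51), and the same value had an adjusted p of 0.00034 without that ΔN-VEGF sample, since all samples share 1 estimate of the spread.

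Ccl5 (RANTES, at 83525778 to 83530518 on the minus strand) attracts T cells and monocytes. It stood at 2.58, 0.163 and 2.25 CPM in WT normoxia and at 0.934, 1.10 and 1.10 CPM in WT hypoxia. In ΔN-VEGF cells it stood at 0.280, 1.14 and 0.245 CPM in normoxia and at 5.54, 5.82 and 5.79 CPM in hypoxia. The 3 hypoxic ΔN-VEGF samples were the highest of all 12. Ccl5 rose by 3.37 ± 0.77 on the log2 scale in ΔN-VEGF cells (adjusted p 0.0034; 4.42 without normoxia sample 2), while WT gave -0.68 ± 0.72 (0.49) with overlapping groups. The line difference in hypoxia was 2.46 ± 0.73 (0.037). The interaction, 4.05 ± 1.05 (0.061), was not called with all samples, and was called without the second normoxia sample of WT (4.57, 2.3e-05) or of ΔN-VEGF cells (5.10, 0.029). The hypoxia line differences of both genes lost their call without any 1 of the 6 hypoxia samples, at adjusted p of 0.068 to 0.11 for Ccl8 and 0.086 to 0.12 for Ccl5, with log2 values of 5.04 to 5.32 and 2.38 to 2.49. Without both second normoxia samples they were 3.5e-17 and 8.6e-12.

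Summed over the inflammatory CC ligands, the level was 65.5, 66.8 and 71.3 CPM in WT normoxia and 8.28, 8.63 and 9.05 CPM in WT hypoxia. The ΔN-VEGF samples summed to 50.9, 218.0 and 50.7 CPM in normoxia and 34.7, 38.9 and 35.5 CPM in hypoxia. The hypoxic sum was thus higher in ΔN-VEGF than in WT cells in every sample, and Ccl8 made up most of it.

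**Figure D2:**
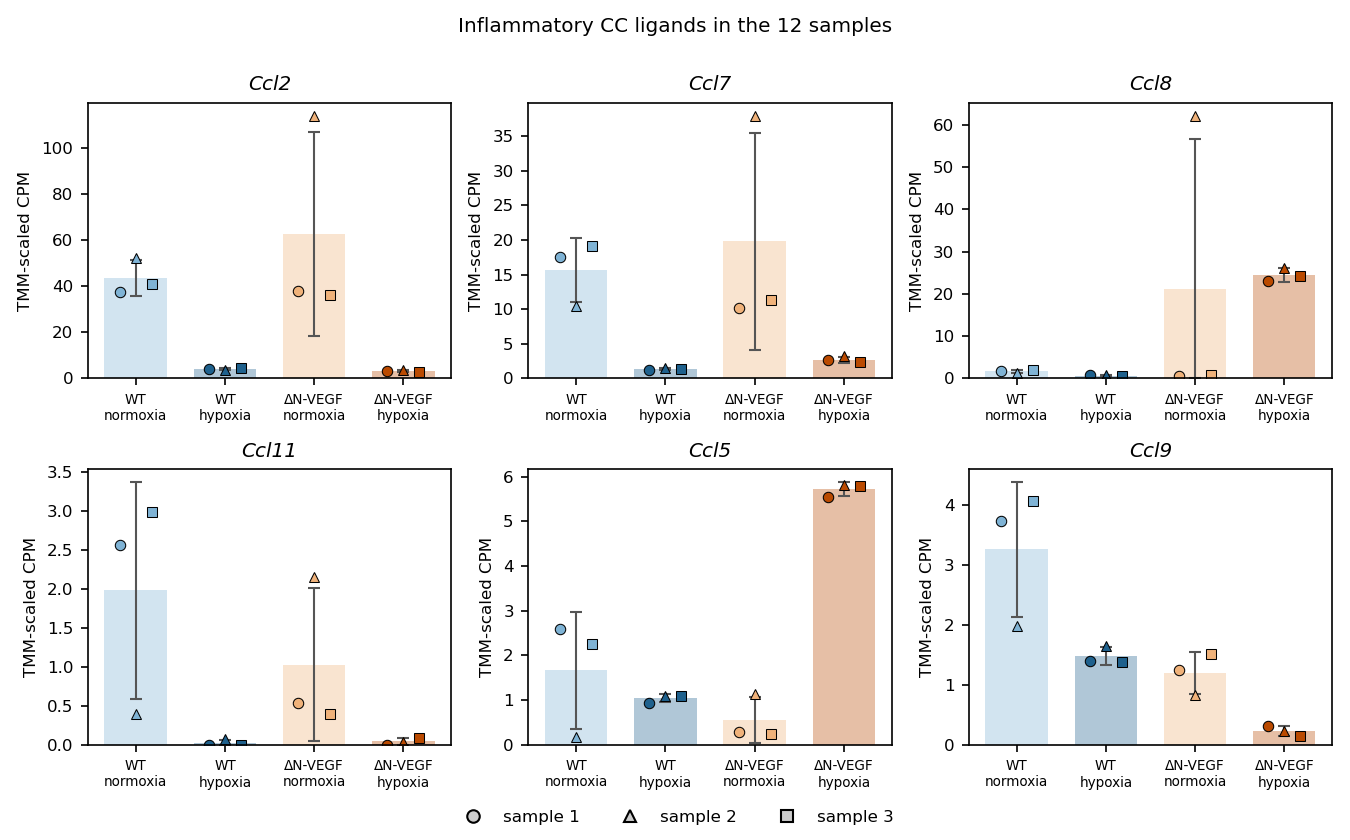
TMM-scaled CPM of 6 inflammatory CC ligands in the 12 samples, on linear axes that start at 0. Points are samples (circle, triangle and square for samples 1, 2 and 3), bars are group means and lines the SD (n = 3), drawn no lower than 0; the triangle of ΔN-VEGF normoxia is the highest of its group for Ccl2, Ccl7, Ccl8, Ccl11 and Ccl5.

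The 3 normoxia samples of a line disagreed for many members. A member counted as disagreeing where the highest sample had at least 10 counts and a CPM at least 2-fold that of the lowest. By this measure 11 of 19 tested members with enough counts disagreed in WT normoxia (57.9%, against 33.0% of all genes) and 11 of 18 in ΔN-VEGF normoxia (61.1%, against 11.4%). In each hypoxia group only 2 of 18 did (11.1%, against 5.16% of all genes in WT and 4.98% in ΔN-VEGF cells). In all of these normoxia cases sample 2 was the highest or the lowest of the 3, and except for Ccl27a and Cxcr2 in ΔN-VEGF cells it lay farther in fold from samples 1 and 3 than these lay from each other. The second WT sample was low for Ccl5 (15.9-fold between highest and lowest), Ccr7 (13.7-fold), Ccl11 (7.56-fold), Ccr10 (6.64-fold), Cxcl12 (4.80-fold), Cx3cl1 (2.91-fold), Ccl28 (2.50-fold), Ccl27a (2.33-fold) and Ccl9 (2.06-fold), and high for Cxcr2 (4.24-fold) and Cxcl16 (4.02-fold). The second ΔN-VEGF sample was high for Ccl8 (90.1-fold), Ccl11 (5.50-fold), Ccl5 (4.64-fold), Ccl7 (3.75-fold), Ccl2 (3.13-fold), Cxcl10 (3.08-fold), Cx3cl1 (2.1-fold) and Cxcl12 (2.08-fold), and low for Ackr3 (2.50-fold). For Cxcr2 (2.2-fold) and Ccl27a (2.07-fold) in ΔN-VEGF cells sample 2 was lowest but near sample 1, and sample 3 was the highest, at 0.417 CPM for Cxcr2 and 1.27 CPM for Ccl27a. Ccl5, Ccl11, Cx3cl1 and Cxcl12 were therefore low in sample 2 of WT and high in sample 2 of ΔN-VEGF cells. Samples 1 and 3 of the same line were within 1.69-fold of each other for every tested member just named.

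**Figure D3:**
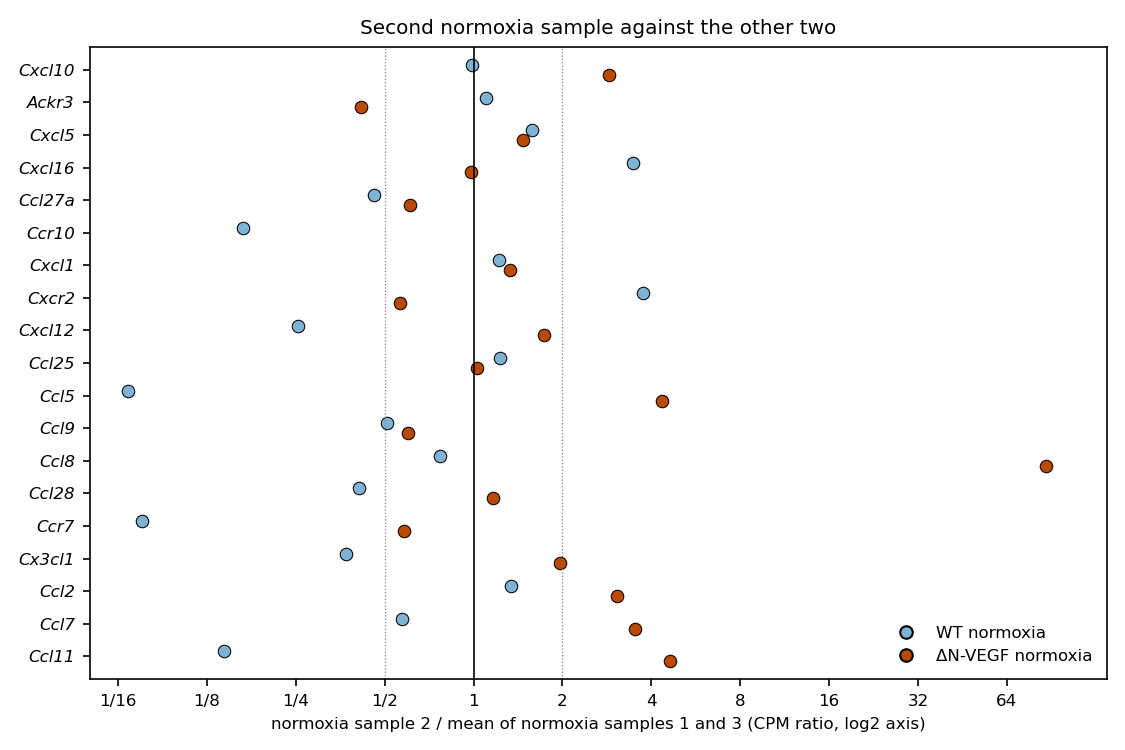
Ratio of the second normoxia sample to the mean of samples 1 and 3 for members with at least 10 counts in 1 sample of the line (log2 axis; blue WT, orange ΔN-VEGF; dotted lines at 2-fold). The Ccl8 point of ΔN-VEGF cells lies at 87.2, and the WT points of Ccl5 and Ccr7 lie at 0.0673 and 0.0755.

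Of the CXC ligands, the interferon-induced Cxcl10, whose receptor Cxcr3 had at most 3 counts in every sample, moved in opposite directions in the 2 lines. It was a low gene: 8, 8 and 10 counts in WT normoxia, 22, 18 and 22 in WT hypoxia, 5, 14 and 5 in ΔN-VEGF normoxia, and 1, 1 and 3 in ΔN-VEGF hypoxia. In CPM these were 0.183 to 0.193, 0.561 to 0.616, 0.108 to 0.332, and 0.0313 to 0.0920. Cxcl10 passed the low-count filter through its level in WT hypoxia. Its WT rise, its line difference in hypoxia and its interaction are therefore not independent of the filter. Cxcl10 rose by 1.62 ± 0.39 in WT hypoxia (log2, adjusted p 0.0075) and fell by 1.77 ± 0.58 in ΔN-VEGF hypoxia (0.023), where the summed counts gave a 3.55-fold lower level (95% counting interval 1.33 to 11.9). That fall lost its call without ΔN-VEGF normoxia sample 2 (-1.10, adjusted p 0.21) or without hypoxia sample 1 (0.085) or 2 (0.081), and was -2.45 without hypoxia sample 3. The fall was also not called by DESeq2 (-1.83, adjusted p 0.053) or by edgeR without both second normoxia samples (-1.09, 0.17). Fits to the ΔN-VEGF samples alone did not test Cxcl10. In hypoxia ΔN-VEGF cells were lower by 11.1-fold in summed counts (4.50 to 35.3), with an adjusted p of 0.0015. The fitted log2 value was -3.40, or -4.07 without ΔN-VEGF hypoxia sample 3. The interaction was -3.39 ± 0.69 (0.029), and lost its call without any 1 sample other than WT normoxia sample 2 and ΔN-VEGF normoxia samples 1 and 2 (log2 -4.07 to -3.15, adjusted p 0.056 to 0.10). An exon of Cxcl10 overlaps the opposite-strand gene Art3 by 133 bases, and reads of the 2 genes may not be separated there.

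Of the neutrophil attractants Cxcl1 and Cxcl5, only Cxcl5 was called between the lines in normoxia. Cxcl5 stood at 5.0, 7.66 and 4.72 CPM in WT normoxia and at 11.5, 15.2 and 9.12 CPM in ΔN-VEGF normoxia, without overlap (log2 difference 1.04 ± 0.23, adjusted p 0.032). Cxcl1 stood at 1.78, 2.35 and 2.08 CPM in WT and at 3.83, 4.81 and 3.43 CPM in ΔN-VEGF normoxia, also without overlap (0.96 ± 0.18, 0.015), which stayed just under the fold threshold. In hypoxia Cxcl5 had 11.2, 7.53 and 10.1 CPM in WT and 16.1, 15.6 and 14.6 CPM in ΔN-VEGF cells (0.68 ± 0.23, 0.059). Cxcl1 had 2.21, 2.43 and 2.40 CPM in WT hypoxia and 2.54, 1.93 and 2.24 CPM in ΔN-VEGF hypoxia, where the lines overlapped. The hypoxia change of Cxcl1 was 0.18 ± 0.18 in WT (0.47) and -0.85 ± 0.18 in ΔN-VEGF cells (0.0024), and the interaction was -1.03 ± 0.26 (0.056). It was called without WT normoxia sample 2 (-1.14, 0.0024), by DESeq2 (-1.02, 0.008), with total-count scaling (-1.20, 0.021) and with at least 10 counts required in every sample (-1.01, 0.043). The normoxia line calls of Cxcl5 and Ccl9 both depended on single samples. Cxcl5 kept its call only without WT normoxia sample 2, WT hypoxia sample 2 or ΔN-VEGF normoxia sample 3, and lost it without any other sample (log2 0.84 to 1.07, adjusted p 0.050 to 0.13). Without both second normoxia samples the normoxia line difference was 1.10 for Cxcl5 (adjusted p 2.4e-06) and -1.49 for Ccl9 (3.8e-07), and a fit to only the 6 normoxia samples called 0 members, with or without a block for the sample number, with 3 members at an unadjusted p below 0.05 in each. Hardly any gene was called there: 0.108% of all genes without the block and 0.00718% with it.

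Among the homeostatic and other ligands, the mucosal ligand Ccl28 and the membrane-bound fractalkine Cx3cl1 fell in hypoxia in both lines. Ccl28 stood at 2.26, 0.906 and 2.18 CPM in WT normoxia, 0.337, 0.479 and 0.790 in WT hypoxia, 1.25, 1.61 and 1.52 in ΔN-VEGF normoxia, and 0.407, 0.547 and 0.583 in ΔN-VEGF hypoxia. It fell by 1.72 ± 0.38 in WT (log2, adjusted p 0.0049), and the ΔN-VEGF level fell by 1.50 ± 0.39 (0.0077), with no overlap. The WT call of Ccl28 was lost in an edgeR fit to the 6 WT samples with a block for the sample number (adjusted p 0.08). Cx3cl1 stood at 1.62, 0.557 and 1.41 CPM in WT normoxia, 0.0779, 0.205 and 0.102 in WT hypoxia, 0.689, 1.45 and 0.784 in ΔN-VEGF normoxia, and 0.439, 0.515 and 0.215 in ΔN-VEGF hypoxia. Its log2 fold change was -3.25 ± 0.56 in WT (0.001) and -1.32 ± 0.49 in ΔN-VEGF cells (0.042). The latter lost its call without any 1 of WT hypoxia samples 1 and 3, ΔN-VEGF normoxia samples 2 and 3 and the 3 ΔN-VEGF hypoxia samples (log2 -1.57 to -0.92, adjusted p 0.050 to 0.16). In WT the Cx3cl1 call was lost in the same fit to the 6 WT samples with a block (adjusted p 0.054).

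Ccl25, the ligand of Ccr9, had 5.07, 6.27 and 5.14 CPM in WT normoxia and 3.63, 3.80 and 3.59 in WT hypoxia, against 5.38, 5.83 and 5.95 in ΔN-VEGF normoxia and 2.51, 2.41 and 2.67 in ΔN-VEGF hypoxia. Its log2 change was -0.58 ± 0.13 in WT (adjusted p 0.0049, under the fold threshold), and it fell by 1.18 ± 0.13 in ΔN-VEGF cells (2.8e-05). In hypoxia the line difference was -0.54 ± 0.13 (0.017), again under the fold threshold, and 204 exonic bases overlap Elavl1 on the opposite strand. Ccl27a, a skin-homing ligand with a near-identical copy in Ccl27b between which reads may be split, had 1.51, 0.743 and 1.73 CPM in WT normoxia and 1.35, 1.51 and 1.96 in WT hypoxia. In ΔN-VEGF cells it had 0.754, 0.616 and 1.27 CPM in normoxia and 2.13, 2.12 and 2.08 CPM in hypoxia, and rose by 1.26 ± 0.34 (0.0087), which became 0.85 (0.072) with total-count scaling.

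Cxcl12, the stromal ligand that Ackr3 takes up, was called in 0 of the 5 comparisons by edgeR, with an unadjusted p below 0.05 in 1 of them, and in 0 by DESeq2. Its samples had 1.0, 0.325 and 1.56 CPM in WT normoxia, 0.597, 0.582 and 0.764 in WT hypoxia, 0.775, 1.61 and 1.08 in ΔN-VEGF normoxia, and 1.50, 1.51 and 1.26 in ΔN-VEGF hypoxia. In hypoxia the lines did not overlap (1.13 ± 0.46, adjusted p 0.11), and without WT normoxia sample 2 the adjusted p was 0.0082. Cxcl16, a membrane-bound ligand, stayed between 0.173 and 0.701 CPM in all samples, and 552 of its exonic bases overlap Zmynd15 on the opposite strand. The 3 WT normoxia samples of Cxcl16 had 0.228, 0.697 and 0.173 CPM, and the ΔN-VEGF means were 0.241 in normoxia and 0.409 in hypoxia.

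Among the receptors, Ackr3, the atypical receptor that scavenges Cxcl12, had the highest CPM of all members in WT hypoxia and rose in both lines. It stood at 67.5, 72.2 and 63.3 CPM in WT normoxia and at 199.3, 190.3 and 197.8 CPM in WT hypoxia. In ΔN-VEGF cells it had 124.3, 49.7 and 114.7 CPM in normoxia and 230.8, 234.2 and 237.0 CPM in hypoxia. The hypoxia samples were tight and lay above every normoxia sample. The rise was 1.53 ± 0.26 in WT (log2, adjusted p 0.00083) and 1.28 ± 0.26 in ΔN-VEGF cells (0.0015). The latter fell under the fold threshold without normoxia sample 2 (0.96, adjusted p 2e-05) and with total-count scaling (0.87, 0.015). Line differences were 0.51 ± 0.25 in normoxia (0.31) and 0.26 ± 0.25 in hypoxia (0.52).

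Ccr7, the receptor of the lymph node ligands Ccl19 and Ccl21, showed the widest separation of the lines among the receptors. It stood at 6.03, 0.441 and 5.66 CPM in WT normoxia and at 0.831, 0.788 and 0.943 CPM in WT hypoxia, so the second normoxia sample lay below all hypoxia samples. In ΔN-VEGF cells it had 10.7, 5.99 and 9.95 CPM in normoxia and 50.9, 47.3 and 46.1 CPM in hypoxia, without overlap. Ccr7 fell by 2.24 ± 0.68 in WT (log2, adjusted p 0.023) and rose by 2.44 ± 0.59 in ΔN-VEGF cells (0.0052). The hypoxic line difference was 5.81 ± 0.73 (0.00058), 56.0-fold, and it was called with every sample left out in turn. The interaction was 4.67 ± 0.90 (0.023), and lost its call without any 1 sample other than the second normoxia samples (4.28 to 4.82, 0.056 to 0.085). The WT fall lost its call without any 1 of WT hypoxia samples 1, 2 and 3 (adjusted p 0.074, 0.076 and 0.066) or WT normoxia samples 1 and 3 (-1.85, 0.069 and -1.92, 0.066), and was -2.75 (3.3e-13) without both second normoxia samples. Ccl19, Ccl21a and Ccl21b had at most 3 counts in every sample.

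Cxcr1 and Ccr10 were low. Cxcr1, a receptor of neutrophil-attracting ligands, had 0, 1 and 2 counts in WT normoxia, 12, 6 and 7 in WT hypoxia, 1, 5 and 2 in ΔN-VEGF normoxia, and 23, 21 and 23 in ΔN-VEGF hypoxia. Hypoxia samples were above normoxia samples in both lines. Summed counts gave a 10.8-fold higher level in WT hypoxia (95% counting interval 3.30 to 56.0; adjusted p 0.0025), where the fitted log2 value was 3.26 and became 3.99 without WT normoxia sample 3. In ΔN-VEGF cells the log2 fold change was 3.43 ± 0.49 (0.00016), and 4.22 without normoxia sample 2. In hypoxia ΔN-VEGF cells were higher by 1.58 ± 0.42 (0.023), a call lost without any 1 of ΔN-VEGF hypoxia samples 1 to 3 (adjusted p 0.078, 0.068 and 0.075) or WT hypoxia samples 2 (0.081) and 3 (0.11). Cxcr1 passed the low-count filter through its level in ΔN-VEGF hypoxia, and 6-sample fits without that group did not test it. Its calls with that group are therefore not independent of the filter.

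Ccr10, the receptor of Ccl27 and Ccl28, had 11, 2 and 16 counts in WT normoxia, 8, 6 and 12 in WT hypoxia, 9, 0 and 9 in ΔN-VEGF normoxia, and 35, 19 and 24 in ΔN-VEGF hypoxia. It rose by 2.53 ± 0.69 in ΔN-VEGF cells (log2, adjusted p 0.01), while WT gave 0.23 ± 0.73 (0.83). The line difference in hypoxia was 1.74 ± 0.66 (0.088) without overlap, and was called without the second normoxia sample of WT (adjusted p 0.012) or of ΔN-VEGF cells (0.029). A fit to only the 6 hypoxia samples called the same 6 members as with all samples and also Ccr10 (1.73, 0.0003), Ccl7 (1.06, 6.1e-05) and Cxcl12 (1.11, 0.00034), where 9.84% of all genes were called. Cxcr2, which shares ligands with Cxcr1, was called in 0 of the 5 comparisons by edgeR, with an unadjusted p below 0.05 in 0 of them, and in 0 by DESeq2. It had 6, 25 and 9 counts in WT normoxia, 8, 6 and 11 in WT hypoxia, 12, 8 and 17 in ΔN-VEGF normoxia, and 8, 10 and 8 in ΔN-VEGF hypoxia. Csf1r, the marker that carried the leukocyte sum, was higher in hypoxia in both lines (log2 3.03, adjusted p 0.0072 in WT; 3.62, 0.0018 in ΔN-VEGF cells; DESeq2 gave it no adjusted p). Its part in the receptor results was not tested.

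**Figure D4:**
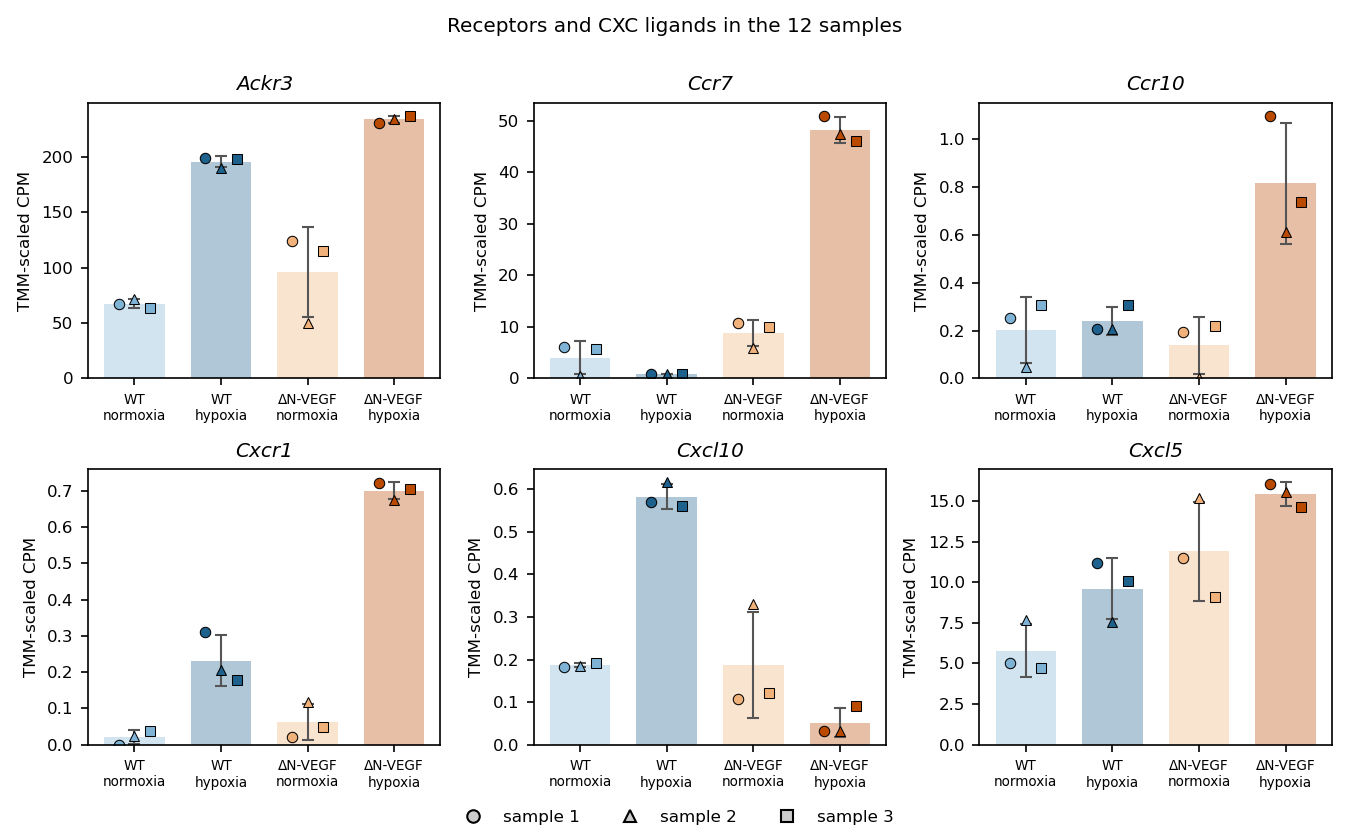
TMM-scaled CPM of 4 receptors and 2 CXC ligands in the 12 samples, on linear axes that start at 0. Points are samples (circle, triangle and square for samples 1, 2 and 3), bars are group means and lines the SD (n = 3), drawn no lower than 0; the Ccr7 samples of ΔN-VEGF hypoxia lie at 46.1 to 50.9 CPM, above all others.

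**Figure D5:**
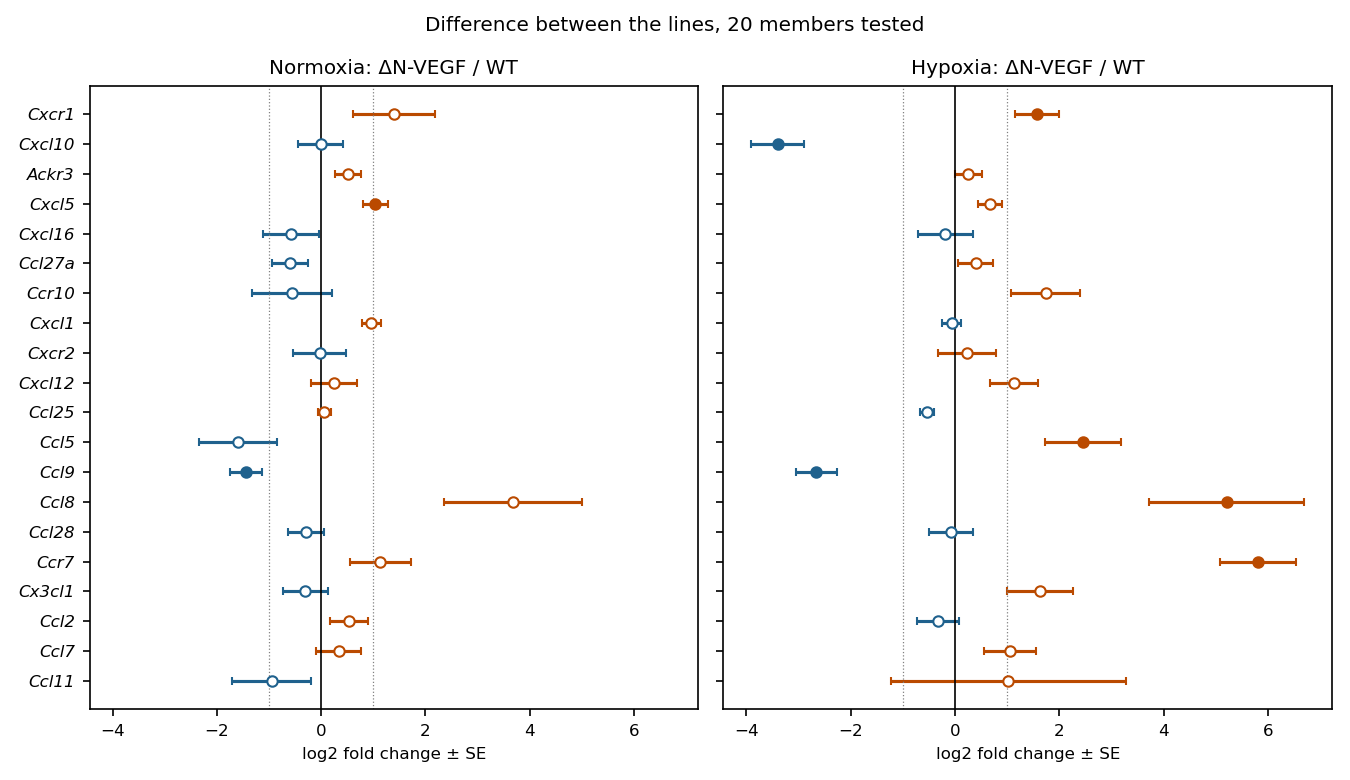
Log2 fold change of ΔN-VEGF against WT cells with its standard error for the 20 members tested, in normoxia (left) and hypoxia (right). Filled points passed the adjusted p and the fold change of 2 (dotted lines), orange is higher and blue lower in ΔN-VEGF cells; Cxcl5 and Ccl9 are filled in normoxia, and Ccl5, Ccl8, Ccl9, Ccr7, Cxcl10 and Cxcr1 in hypoxia.

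The 12 members below the filter had between 0 and 21 counts in any sample. Ccl17, a ligand of Ccr4, had 9, 0 and 21 counts in WT normoxia and 0 in each WT hypoxia sample, which is at least 7.71-fold lower against a floor of 3 counts over the group. In ΔN-VEGF cells it had 9, 5 and 5 counts in normoxia and 1, 0 and 0 in hypoxia (14.0-fold lower, 95% counting interval 2.23 to 583). Cxcr5 had 0 counts in ΔN-VEGF normoxia and 3, 5 and 5 in ΔN-VEGF hypoxia, at least 5.87-fold higher. Xcr1 had 2 to 11 counts per sample. Ackr2, Ackr4, Ccl4, Ccr4, Ccr9, Cx3cr1, Cxcl17 and Cxcr6 had at most 6 counts in any sample.

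Genes that act with the chemokine system were counted by list. Of 6 tested chemokine genes outside the naming rule, WT hypoxia raised Mif and Ppbp, and ΔN-VEGF hypoxia raised Mif, Rarres2 and Cmklr1. These were 2 and 3 of the 6, where 15.7% and 27.2% of all genes were called, and the median log2 fold changes were -0.03 and 1.48, against -0.07 and -0.01. Mif, a cytokine that binds Cxcr2 and Cxcr4, rose by 2.13 in WT (log2, adjusted p 9.9e-05), while the ΔN-VEGF difference was 2.38 (2.6e-05). The platelet chemokine Ppbp (also named Cxcl7) stood at 0.525, 2.02 and 0.250 CPM in WT normoxia and at 6.05, 5.21 and 5.58 CPM in WT hypoxia, a rise of 2.60 (0.0065). In ΔN-VEGF hypoxia it had 0.909 to 1.26 CPM, 2.34 lower on the log2 scale than WT (0.022). Rarres2, which encodes the attractant chemerin, was higher in ΔN-VEGF than in WT hypoxia by 3.85 (0.0019).

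Of 24 tested NF-κB pathway genes, WT hypoxia raised 2 and lowered 0, and ΔN-VEGF hypoxia raised 3 and lowered 1. Both shares called, 8.33% and 16.7%, were below those of all genes (15.7% and 27.2%), and the list's medians were -0.03 and 0.18. Tnfaip3, a feedback inhibitor of the pathway, rose by 3.44 on the log2 scale in WT (adjusted p 2.4e-07), while the ΔN-VEGF difference was 3.80 (5.8e-08), and the adaptor Traf6 rose by 1.70 (6.8e-08) and 1.88 (1.7e-08). The inducers Il1b and Tnf were at 0 in all samples. Between the lines 0 of the 24 were called in either condition, where 2.17% of all genes were called in normoxia and 6.81% in hypoxia. By edgeR 3 had an unadjusted p below 0.05 in normoxia and 8 in hypoxia, and DESeq2 called 0 in each. Of 22 interferon and STAT regulators, WT hypoxia raised 1 and lowered 2, and ΔN-VEGF hypoxia raised 3 and lowered 1, or 13.6% and 18.2%, again below all genes, with medians of -0.24 and -0.23. The kinase Jak1 rose in both lines (1.32, adjusted p 5e-07, and 1.92, 2.2e-08).

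Of 26 genes for signalling and desensitization below the receptors, WT hypoxia raised 3 and lowered 3, and ΔN-VEGF hypoxia raised 3 and lowered 2. The shares called were 23.1% and 19.2%, above the 15.7% of all genes in WT and below the 27.2% in ΔN-VEGF cells, with medians of 0.06 and -0.0001. Arrb1, which encodes an arrestin that uncouples receptors from G proteins, rose by 1.26 in WT (log2, adjusted p 0.0011), while the ΔN-VEGF difference was 3.86 (3.6e-07), with an interaction of 2.60 (0.0042). Pik3r5, a regulatory subunit of the PI3 kinase below G proteins, fell by 1.55 (3.7e-05) and 2.67 (5.2e-07), with an interaction of -1.12 (0.032). Of 21 genes for glycosaminoglycan carriers and proteases that trim chemokines, WT hypoxia raised 2 and lowered 5, and ΔN-VEGF hypoxia raised 4 and lowered 4, which were 33.3% and 38.1% of the list (medians -0.43 and -0.08). The proteoglycan Sdc4 rose by 1.72 (4e-08) and 1.77 (1.9e-08), and Sdc1 fell by 1.65 (1.4e-05) and 2.65 (2.9e-07). Tnfaip6, whose product binds chemokines and glycosaminoglycans, fell by 2.15 (7.5e-05) and 1.52 (0.00048).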

How the data were processed

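RNA-seq counts of 12 samples were used, 3 in each group, with conditions and replicate numbers from the labels. The authors prepared libraries with an unstranded Illumina TruSeq kit, and their processing notes name Trim Galore, cutadapt 1.10, TopHat2 2.1.0, Bowtie2 2.2.6, HTSeq 0.6.1 and DESeq2 1.18.1. They deposited a raw count of reads per gene, with no scaling or filter. Gene positions in the table match annotation of GRCm38. Whether HTSeq used strand, and how reads of near-identical genes were counted, is not given in the sources used here.

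Counts were fitted with edgeR 4.0.16 in R 4.3.3 (limma 3.58.1 as its library): filterByExpr, TMM scaling and 1 mean for each group in a single fit of the 12 samples. The quasi-likelihood test was used, with p-values adjusted over the 14724 genes tested (Benjamini-Hochberg). A call needed an adjusted p below 0.05 together with a 2-fold change. The SE is the size of the log2 fold change divided by the square root of F. Genes with at most 3 counts in every sample of a group were compared by summed counts and scaled library totals, with an exact 95% interval, or a floor of 3 counts over the group for a count of 0. Every tested member is named. Per-sample values are given for members called in at least 1 comparison, reaching a mean of 1 CPM, or disagreeing in normoxia. Up to 4 called genes with the smallest adjusted p could be named per companion list. A few genes of these sets are not reported here by name. The members and lists were chosen with earlier results of these data known. The code was tested on simulated data.

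Same-numbered samples were checked for pairing by the correlation of their deviations from the group means. It was 0.378, 0.498 and 0.355 between the lines in normoxia, so the numbers were taken to pair the samples there, although samples 1 and 3 of different lines correlated at 0.347 and 0.358 too. The correlation of same-numbered samples was -0.018 to 0.109 in the other comparisons, where the numbers were not taken as pairs. Between the closest replicates the chi-square per gene was 2.945, above the value of about 1 from sampling alone. Alternatives were DESeq2 1.42.0, RLE or total-count scaling, other filters, 6-sample fits, a replicate block, and each sample or both second normoxia samples left out.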

Additional observations from a re-analysis of the deposited data

Results flagged for a closer look

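For 2 members the hypoxia response of ΔN-VEGF cells differed from that of WT cells in edgeR's test of the difference itself. The response of Ccr7 was higher in ΔN-VEGF cells by 4.67 on the log2 scale (adjusted p 0.023): its mean went from 4.04 to 0.854 CPM in WT and from 8.89 to 48.1 CPM in ΔN-VEGF cells. The second WT normoxia sample, at 0.441 CPM, lay below every WT hypoxia sample, and the call was lost in 10 of 12 fits that left out 1 sample (adjusted p up to 0.085). The response of Cxcl10 was lower by -3.39 (0.029): from 8 to 10 counts per sample in WT normoxia to 18 to 22 in WT hypoxia, and from 5 to 14 in ΔN-VEGF normoxia to 1 to 3 in ΔN-VEGF hypoxia. That call was lost in 9 of 12 such fits (adjusted p up to 0.10). Cxcl10 also passed the low-count filter through its level in WT hypoxia, 1 of the groups compared. For the same difference edgeR called 1.56% of 14724 genes, and DESeq2 called 4 members and 1.98% of 30324 genes.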

How the results depend on the processing

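The number of members called in WT hypoxia was 10, with 15.7% of all genes called. A fit to the 6 WT samples with a replicate block called 5, without Ccl28, Ccl9, Ccr7, Cx3cl1 and Cxcr1, and 9.25% of all genes. Without the block that fit called 9, with Ccl8 gained and Ccr7 and Cxcr1 lost, and 12.5% of all genes. Cxcr1 did not pass the filter in either fit. With at least 10 counts required in every sample 5 members were called, and this filter left 11 members. Under that filter ΔN-VEGF hypoxia gave 7 (14 otherwise), the lines in normoxia 1 (2) and the lines in hypoxia 2 (6), and the shares of the 11994 genes left that were called were 13.1% in WT hypoxia and 25.1%, 1.51% and 4.77% in these 3 comparisons. The 6 normoxia samples alone gave 0 members without and 0 with the replicate block, where 0.108% and 0.00718% of all genes were called. For the lines in normoxia a replicate block over all 12 samples again gave 2 members, with 2.0% of all genes called. That block gave 10 members in WT hypoxia, 13 in ΔN-VEGF hypoxia (without Cx3cl1), 6 for the lines in hypoxia (Ccr10 in place of Ccl5) and 2 for the interaction. The shares of all genes called were 15.8%, 27.5%, 7.14% and 1.55% in the same order. DESeq2 called 4 members and 1.98% of 30324 genes for the interaction, where edgeR called 2 members and 1.56% of 14724 genes. Ccl8 had no adjusted p from DESeq2 in any comparison. Without both second normoxia samples the lines differed in 7 members in normoxia and 10 in hypoxia, and the interaction in 11, while the shares of all genes called rose too, from 2.17% to 11.3%, 6.81% to 10.6% and 1.56% to 16.6%. Leaving out 1 sample gave 0 to 5, 3 to 9 and 0 to 8 members for the lines in normoxia, the lines in hypoxia and the interaction, where 0.719% to 13.3%, 4.15% to 10% and 0.375% to 17.4% of all genes were called. The normoxia line difference of Ccl8, 3.68 on the log2 scale with all samples and at most 4.26 with 1 left out, reversed to -1.20 without the second ΔN-VEGF normoxia sample and to -1.31 without both second samples, and that of Cxcr2 went from -0.03 to 1.09 without both. The cause of these shifts was not tested. Depth limits members with few counts, such as Cxcl10, Cxcr1 and Ccl11 in hypoxia, where intervals cover counting error only. The labels' samples may be technical replicates, and the lines may differ by clone.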
